A study of Mus musculus with 8 samples.

Results

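Mouse embryonic stem cells given siRNA against the histone chaperone subunit CHAF1A and an siRNA pool against the transcription factor DUX were compared with cells given a negative control siRNA, by polyA RNA sequencing. The comparison takes 4 of the 8 libraries of the series, chosen by their labels: 2 transfected with Chaf1a siRNA and the diced pool si309, which targets mDux (Chaf1a + si309), and 2 transfected with negative control siRNA. The other 4 libraries, 2 with Chaf1a siRNA and pool si308 (Chaf1a + si308) and 2 with Chaf1a siRNA and control siRNA (Chaf1a + control), enter the fit and are named where they show how the si309 cells differ. In all 4 groups the cells carried a MERVL::EGFP reporter and grew on gelatin in serum with LIF and the 2i inhibitors CHIR99021 and PD0325901. Chaf1a + si309 cells received 10 pmol of Chaf1a siRNA and 10 pmol of pool on each of 2 consecutive days, although the label of 1 of these libraries gives no dose. Chaf1a + si308 cells received the same amounts, Chaf1a + control cells received 10 pmol of each siRNA, and negative control cells received 20 pmol of control siRNA. No group received an mDux pool without Chaf1a siRNA or a diced pool against an unrelated sequence, so effects of the Chaf1a siRNA, of the mDux pool and of diced siRNA as such cannot be told apart in the comparison with the negative control. The labels name biological replicates but no clone.

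CAF-1 places newly made H3-H4 histones on DNA behind the replication fork, and CHAF1A is its large subunit. Cells that lose CAF-1 enter more often a state that resembles the cleavage-stage embryo, in which the double homeobox factor DUX switches on the Zscan4 genes and the endogenous retrovirus MERVL. An siRNA pool against mDux is therefore a way to deplete CAF-1 while holding that arm down.

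The gene table gave 30376942 and 38179797 counts in the Chaf1a + si309 libraries and 27937053 and 35845976 in the negative control libraries. Genes with at least 1 count numbered 23347 and 24054 with Chaf1a + si309, against 20731 and 21458 in the negative control. The 10 most abundant genes took 3.36% and 3.41% of counts, against 4.08% and 4.07%, and mitochondrial genes took 1.02% and 1.05%, against 0.848% and 0.755%. Replicates differed beyond sampling noise, with a chi-square per degree of freedom of 2.83 between the Chaf1a + si309 libraries and of 5.27 between the negative controls. Stem cell markers were present in every library: the 6 markers fixed for these cells (Pou5f1, Sox2, Nanog, Zfp42, Esrrb and Dppa5a) summed to 3545 and 3613 CPM (counts scaled to a common library size) with Chaf1a + si309 and to 5529 and 5411 CPM in the negative control.

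Chaf1a (ENSMUSG00000002835, GRCm38 chromosome 17, 56040439 to 56072289) had 33.6 and 29.3 CPM in Chaf1a + si309 libraries, against 139 and 140 CPM in the negative control. Its RNA was 4.43-fold lower (log2 change -2.15, SE 0.07, adjusted p = 1.2e-16), and the groups did not overlap. The level differed from that in Chaf1a + control cells by 0.09 (log2, SE 0.07, adjusted p = 0.51) and from that in Chaf1a + si308 cells by -0.14 (SE 0.07, adjusted p = 0.34).

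The other target, mDux, is listed under the symbol 4933403O03Rik (Duxf3 in GENCODE, ENSMUSG00000075046, chromosome 10, 58229979 to 58232675, minus strand). It had 5 and 9 counts with Chaf1a + si309, against 0 and 2 in the negative control and 256 and 193 in Chaf1a + control cells. On the CPM scale mDux was 0.159 and 0.228 CPM with Chaf1a + si309, against 0 and 0.0606 CPM in the negative control. The ratio of summed counts over the negative control was 5.77 with an exact 95% counting interval of 1.33 to 52.3 (log2 change 2.40, SE 0.87, adjusted p = 0.019). This call was lost without 1 of the negative control libraries (adjusted p = 0.115) or without 1 of the Chaf1a + si309 libraries (adjusted p = 0.106). mDux was lower than in Chaf1a + control cells (log2 difference -5.18, SE 0.31, adjusted p = 2.1e-11).

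The pool si309 was diced from a fragment of 480 bases of a Duxf3 transcript that has 1 exon and 2025 bases, at chr10:58230694-58231173 on the minus strand of GRCm38. Its ends are shown because they mark which part of mDux the pool covers, and they are read from the GENCODE transcript:
start of the si309 fragment, chr10:58231153-58231173: cttctgcagagagtcccagac
end of the si309 fragment, chr10:58230694-58230713: gacacaacacctgatctgcc
The same primer pair also matched the pseudogene Gm10807 (chr10:58227900-58228379), which had 1 and 1 counts with Chaf1a + si309, 0 and 0 in the negative control, and 94 and 67 in Chaf1a + control cells. How reads were divided among such near-identical copies is not given in the sources used here.

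**Figure D1:**
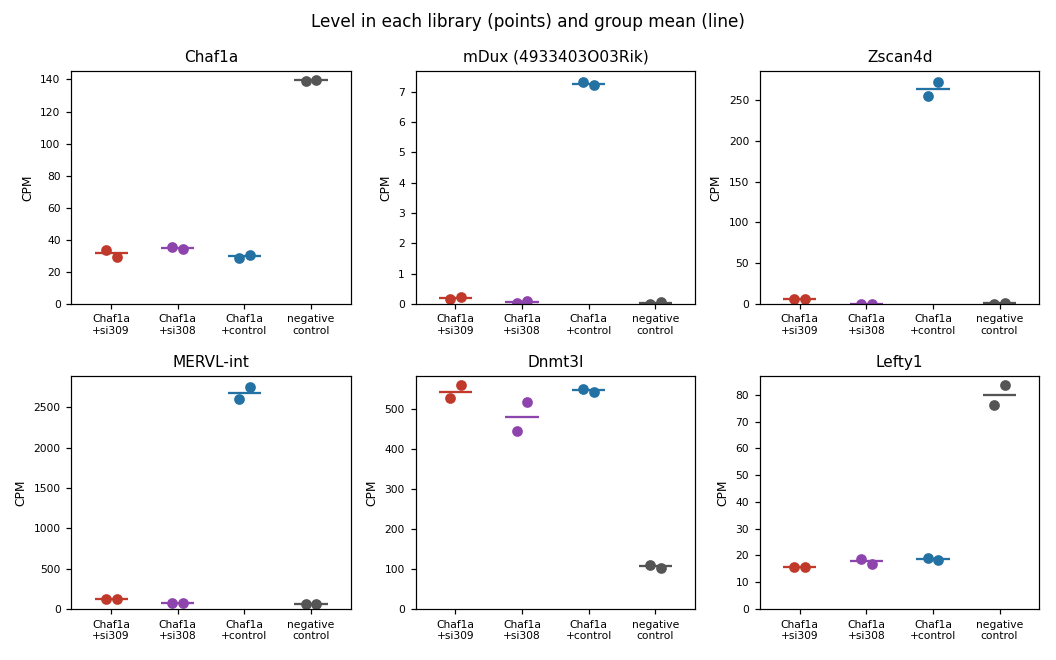
CPM (y axis, from 0) of 6 named genes or repeats in each library (points) and the group mean (line), with Chaf1a + si309 at the left of each panel and the negative control at the right. Chaf1a and Lefty1 were low and Dnmt3l was high in every group given Chaf1a siRNA, while mDux, Zscan4d and MERVL-int stood high in Chaf1a + control cells alone (7.27, 264 and 2677 CPM).

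A large part of the transcriptome differed, most of it by less than 2-fold. A filter on low counts kept 17977 of 28431 genes for testing and left out 10454. Of those tested, 6299 (35%) were higher and 5450 (30.3%) lower with Chaf1a + si309 at an adjusted p under 0.05. At least a 2-fold difference was far more often a rise than a fall, with 3643 genes (20.3%) higher and 572 genes (3.18%) lower. The authors' deposited table, which compares the same groups, lists 5245 genes higher and 5105 lower, with 2137 and 335 at least 2-fold, and has no adjusted p for 10246 genes. A DESeq2 run on the counts here gave 3330 and 498 genes at least 2-fold. Why the deposited 2-fold counts are smaller was not tested, so they are not like measures. The share of calls that were rises was 53.6% here and 69.4% when counts were scaled by library totals alone, which moved the median of all genes to 0.22 on the log2 scale, against 0.04 here.

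**Figure D2:**
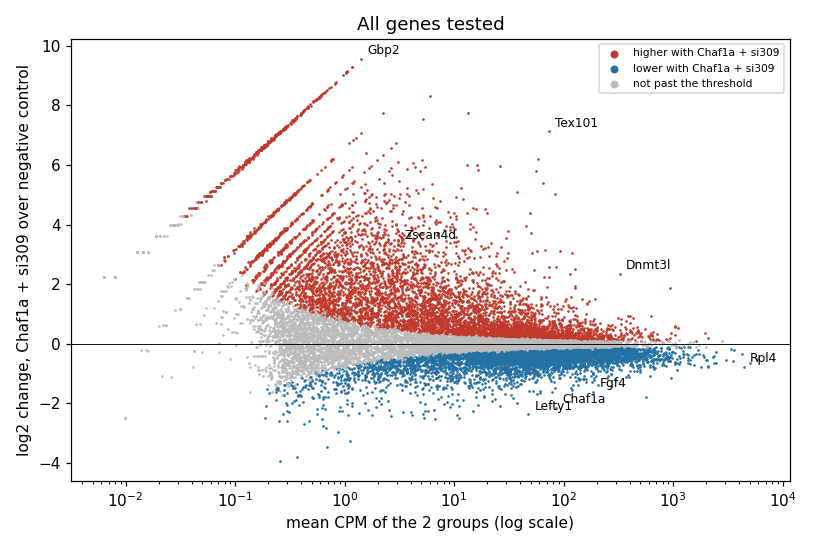
Fitted log2 change of each gene tested (y axis, Chaf1a + si309 over negative control) against its mean CPM in both groups (x axis, log scale), coloured by direction where the adjusted p was under 0.05. The 3643 genes higher by at least 2-fold lie mostly at low levels and the genes over 100 CPM lie mostly below 0.

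The balance of rises and falls differed with the level in the negative control. Among 1254 tested genes under 0.1 CPM in the negative control, 1009 were higher and 0 lower. Among 3439 genes from 0.1 to 1 CPM, 1550 were higher and 113 lower. Genes of the first class, and many of the second, could pass the filter only through a group given Chaf1a siRNA where they are high, so both tallies lean upward by construction. Among 6553 genes from 10 to 100 CPM the balance was the reverse, with 1746 higher and 2743 lower, and among 2706 genes over 100 CPM 343 were higher and 1839 lower. With no count in either negative control library stood 312 of the higher genes, and 37 of these reached at least 1 CPM with Chaf1a + si309.

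The largest fitted rises were of genes with 0 counts in both negative control libraries, so each fold is given as a minimum, with 3 counts assumed in either control library. Gbp2, an interferon-inducible guanylate-binding protein, had 98 and 102 counts with Chaf1a + si309, at least 27.3-fold higher. Fam83a had 70 and 97 counts (at least 22.4-fold higher), Ltf, which encodes lactoferrin, 61 and 107 (at least 22.3-fold), and Pvalb, which encodes the calcium buffer parvalbumin, 61 and 90 (at least 20.2-fold). Actc1, cardiac actin, had 77 and 69 counts (at least 20.1-fold higher) and was also higher than with Chaf1a + si308 (log2 difference 1.50, adjusted p = 0.0095). Further named rises of this kind, Itih3, Wdr72, Hdc, Spocd1, Mgst2 and Reg1, had bounds from 13.7-fold to 19.8-fold. The genes named here stayed low, and Gbp2 had the highest mean of them, with 3.11 and 2.59 CPM.

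Genes that reached at least 50 CPM gave the rises with the most reads behind them. Tex101, a germ-cell surface glycoprotein, had 141 and 148 CPM with Chaf1a + si309, against 0.903 and 1.12 CPM in the negative control (log2 change 7.14, SE 0.10, adjusted p = 1.8e-22). Both treated libraries lay far above both controls, and Tex101 was also higher than in Chaf1a + control cells (log2 difference 0.44, adjusted p = 2.1e-06) and in Chaf1a + si308 cells (0.45, adjusted p = 1.1e-05). Prph, the neuronal intermediate filament peripherin, had 114 and 117 CPM against 1.37 and 1.73 CPM (6.20, SE 0.10). Kif1a, a kinesin of axonal vesicle transport, had 53.4 and 49.3 CPM against 0.903 and 0.757 CPM (5.96, SE 0.13). Taf7l, a germ-cell paralogue of a TFIID subunit, had 120 and 132 CPM against 2.39 and 3.45 CPM (5.40, SE 0.10). Akr1cl, Gsn (the actin-severing protein gelsolin), Gpnmb, S100a6, Efr3b and Flnc (filamin C) rose by 3.80 to 5.80 on the log2 scale. Groups that do not overlap were a condition for naming the genes of this paragraph, and 6291 of the 6299 higher genes met it. Gpnmb differed between pools: 159 and 165 CPM with Chaf1a + si309, a mean of 83.4 CPM with Chaf1a + si308 and of 213 CPM in Chaf1a + control cells (log2 difference from si308 0.95, adjusted p = 1.2e-09; from Chaf1a + control -0.39, adjusted p = 7.7e-05).

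Falls among well-expressed genes were led by Lefty1, a secreted inhibitor of Nodal, at 15.6 and 15.5 CPM with Chaf1a + si309, against 76.0 and 83.6 CPM in the negative control (log2 change -2.36, SE 0.08, adjusted p = 3.2e-16). After Chaf1a itself followed Accsl, Sgk3, Ldhb, Fut9, S100a13, Dnajc6, Pfkm and Fgf4, with log2 changes from -1.98 to -1.60. Fgf4, the growth factor that primes stem cells for differentiation, had 92.6 and 91.9 CPM against 281 and 278 CPM, and Ldhb, a lactate dehydrogenase subunit, 251 and 264 CPM against 846 and 920 CPM. Among weaker genes Clca2 (0.0635 and 0.152 CPM against 0.981 and 1.55 CPM; -3.47, SE 0.52), Elavl4, Htr3a, Tlx1, Mobp, Acsm4, Arhgef38, Mcmdc2, Lrrc15, Setbp1 and Ccbe1 had log2 changes from -3.47 to -2.38. Groups that do not overlap were likewise a condition for naming these genes, met by 5442 of the 5450 lower genes.

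The two-cell-like genes, most of them known DUX targets or genes that rise with them, stayed far below their level in Chaf1a + control cells but above the negative control. Of 53 tested members of that list 47 (88.7%) were higher than in the negative control, 1 was lower and 5 did not pass, with a median log2 change of 3.47, or 2.83 with the 9 members at 0 in the negative control set at their bounds; over all genes tested 35% were higher and the median was 0.04. Most of these genes pass the filter through the Chaf1a + control libraries, where they are high. When only the libraries of the 2 groups were fitted, 36 members were tested, of which 35 were higher and 1 lower; members near 0 in the negative control passed that filter too only where they were high with Chaf1a + si309, so this count leaned upward as well. Levels stayed low: the list summed to 93.6 and 89.4 CPM with Chaf1a + si309, 17.9 and 19.7 CPM with Chaf1a + si308, and 2895 and 2989 CPM in Chaf1a + control cells, beside 14.9 and 13.8 CPM in the negative control.

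Zscan4d, of the family that protects telomeres in stem cells, had 5.68 and 5.58 CPM with Chaf1a + si309, against 0.353 and 0.697 CPM in the negative control (log2 change 3.35, SE 0.20, adjusted p = 5.9e-12). Zscan4c had 4.22 and 3.35 CPM against 0.196 and 0.242 CPM (4.05, SE 0.27), Zscan4f 3.81 and 3.42 CPM against 0.235 and 0.151 CPM (4.23, SE 0.32), and Zscan4e and Zscan4b rose by 2.83 and 1.98; the Zscan4b call was lost without 1 of the negative control libraries (adjusted p = 0.063). The deubiquitinase genes given here had larger fitted log2 changes, over levels near 0 in the negative control. Usp17lb had 5.62 and 6.49 CPM against 0.118 and 0.0606 CPM (6.09, SE 0.28), Usp17la 7.65 and 6.92 CPM against 0.157 and 0.212 CPM (5.24, SE 0.22), and Usp17le 5.14 and 5.07 CPM against 0.235 and 0.0909 CPM (5.02, SE 0.28). Zfp352, a zinc finger gene of the cleavage-stage embryo, had 20 and 22 counts against 1 and 0, a ratio of 34.6 with a counting interval of 5.88 to 1400. Pramef6 had 5 and 3 counts against 0 and 0. BC080695 had 4 and 2 counts against 0 and 1 and did not pass (adjusted p = 0.12). The member that fell was Obox6 (1.81 and 0.988 CPM against 3.69 and 3.45 CPM, -1.38, SE 0.26, adjusted p = 8.9e-05). Zscan4 and Usp17l copies are near identical, and reads may be split among them.

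The same list was set against both other depleted groups. Against Chaf1a + si308 cells 36 of the 53 were higher and 0 lower (edgeR; median log2 difference 3.83), where 430 of all genes (2.39%) were higher and 228 (1.27%) lower. The 6 genes named for the largest rise between pools, Zscan4c, Zscan4d, Zscan4e, Zscan4f, Usp17lb and Usp17lc, were all of this list. Zscan4f, for example, had a mean of 0.0925 CPM with Chaf1a + si308 (log2 difference 5.02, adjusted p = 1.6e-09), and Usp17lb 0.232 CPM (4.71, adjusted p = 6.8e-12). Most of the 53 passed the filter through the Chaf1a + control libraries, where they are high, so a count against that group leans toward lower. Against Chaf1a + control cells 50 of the 53 were lower and 0 higher (median log2 difference -5.17), where 676 of all genes (3.76%) were higher and 1269 (7.06%) lower. There Zscan4d averaged 264 CPM (log2 difference -5.55, adjusted p = 9.3e-22) and Usp17lb 171 CPM (-4.81, adjusted p = 3.3e-21). BC080695, at 4 and 2 counts with Chaf1a + si309, averaged 11.5 CPM there, and Zscan4b, at 21 and 23 counts, averaged 57.9 CPM. Counts of genes between depleted groups rest on single libraries: leaving out each library in turn gave 164 to 567 genes higher and 47 to 326 lower than with Chaf1a + si308, and 196 to 905 higher and 695 to 1474 lower than in Chaf1a + control cells. The difference of mDux between pools did not pass the threshold (log2 difference 1.50, SE 0.70, adjusted p = 0.29).

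Outside this list the genes named for the largest differences between depleted groups were low. Spink10, a serine protease inhibitor, had 4.57 and 5.55 CPM with Chaf1a + si309, against 11.6 and 10.6 CPM with Chaf1a + si308 (log2 difference -1.12, adjusted p = 1.8e-05). Myb, a transcription factor of blood progenitors, had 2.41 and 1.60 CPM, against 4.45 and 4.09 CPM (-1.11, adjusted p = 0.0021). Gmnc, Asb9, Lnx1 and Chrna9 were also lower than with that pool, all under 2 CPM. Higher than in Chaf1a + control cells was Wfdc1, at 2.95 and 2.91 CPM with Chaf1a + si309, against 0.773 and 0.972 CPM (1.76, adjusted p = 3e-05), with Cd3d, Rab17, Sncb, Card9 and Myo7b after it.

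**Figure D3:**
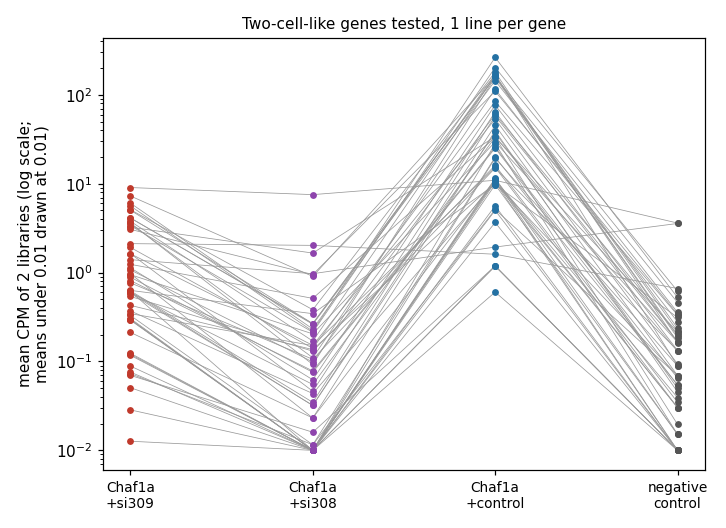
Mean CPM of 2 libraries (y axis, log scale) for each of the 53 two-cell-like genes tested, joined across the 4 groups, with means under 0.01 CPM drawn at 0.01. Summed over the list, the Chaf1a + si309 libraries (93.6 and 89.4 CPM) lie between those of Chaf1a + control cells (2895 and 2989 CPM) and the negative control (14.9 and 13.8 CPM).

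Promoters of the list are shown where a script found the letters GATTNAATC, the core of the site that DUX is known to bind, and for 2 of the members named for the difference between pools. Promoters were matched in RefSeq (build GRCm38.p6, 300 bases around the start site) for 25 of the 53 genes tested. The letters, which are their own reverse complement, stood in 3 of the 25 (12%) and in 76 of all 27025 promoters in the table (0.281%). The AF067061 and Gm21761 windows are closely alike and hold the letters at the same position, so these 2 are not independent matches. The difference in share was not tested. Capitals mark the letters:
AF067061, chr13:120262845-120263144, plus strand: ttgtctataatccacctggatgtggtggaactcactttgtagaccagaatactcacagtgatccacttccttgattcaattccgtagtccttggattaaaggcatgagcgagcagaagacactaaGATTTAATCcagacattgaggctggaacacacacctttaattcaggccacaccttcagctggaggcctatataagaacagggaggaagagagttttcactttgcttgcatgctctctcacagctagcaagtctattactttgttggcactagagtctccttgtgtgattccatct
Gm21761, chr13:119913419-119913718, minus strand: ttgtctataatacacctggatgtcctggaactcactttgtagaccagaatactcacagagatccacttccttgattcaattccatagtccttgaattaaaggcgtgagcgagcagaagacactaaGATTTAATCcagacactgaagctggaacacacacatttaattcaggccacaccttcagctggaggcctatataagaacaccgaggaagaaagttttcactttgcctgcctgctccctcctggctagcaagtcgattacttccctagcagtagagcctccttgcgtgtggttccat
Gm4340, chr10:104193792-104194091, plus strand: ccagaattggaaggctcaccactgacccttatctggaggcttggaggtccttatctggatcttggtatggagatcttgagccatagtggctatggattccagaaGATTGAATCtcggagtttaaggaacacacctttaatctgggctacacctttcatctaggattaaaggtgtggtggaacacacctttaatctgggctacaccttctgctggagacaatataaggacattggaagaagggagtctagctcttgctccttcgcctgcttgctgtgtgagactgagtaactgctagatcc
Zscan4c, chr7:11005495-11005794, plus strand: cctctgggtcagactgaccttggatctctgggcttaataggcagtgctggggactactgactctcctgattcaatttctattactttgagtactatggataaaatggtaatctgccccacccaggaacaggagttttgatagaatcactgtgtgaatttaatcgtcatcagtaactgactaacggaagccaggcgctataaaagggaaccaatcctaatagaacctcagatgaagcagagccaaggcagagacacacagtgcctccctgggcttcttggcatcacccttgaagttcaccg
Usp17lc, chr7:103416446-103416745, plus strand: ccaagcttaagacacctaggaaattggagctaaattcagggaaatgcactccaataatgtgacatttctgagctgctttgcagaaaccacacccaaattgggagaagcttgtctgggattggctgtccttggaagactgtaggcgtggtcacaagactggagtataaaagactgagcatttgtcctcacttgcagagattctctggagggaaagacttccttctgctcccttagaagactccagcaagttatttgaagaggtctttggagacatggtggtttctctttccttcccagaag
The letters began at position -125 from the start site in AF067061 and Gm21761 and at -146 in Gm4340, and were not in the Zscan4c and Usp17lc windows. Gm21761 had 3.49 and 3.27 CPM with Chaf1a + si309, against 0.785 and 0.454 CPM in the negative control and a mean of 203 CPM in Chaf1a + control cells (log2 change over the negative control 2.48, SE 0.22, adjusted p = 2.3e-09). AF067061 had 13 and 30 counts against 1 and 2, a ratio of 11.8 with a counting interval of 3.78 to 59.5. Gm4340 had 4 and 21 counts against 2 and 1, a ratio of 6.87 (2.10 to 35.5).

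MERVL-int, the internal sequence of the retrovirus behind the EGFP reporter, had 124 and 119 CPM with Chaf1a + si309, against 59.4 and 59.6 CPM in the negative control (log2 change 1.03, SE 0.08, adjusted p = 4.1e-38). Its long terminal repeat MT2_Mm, the promoter of MERVL, had 46.7 and 45.8 CPM against 33.3 and 34.2 CPM (0.45, SE 0.08, adjusted p = 1e-06). The groups did not overlap for either repeat. Chaf1a + control cells averaged 2677 CPM of MERVL-int (log2 difference -4.47) and Chaf1a + si308 cells 73.6 CPM (0.72, adjusted p = 1e-18). MERVL-int and MT2_Mm were the 2 repeat names (0.16%) higher than with Chaf1a + si308, and 0 (0%) were lower in the edgeR fit; DESeq2 also gave 0 lower, and at an unadjusted p under 0.05 10 repeat names were higher and 113 lower. That count rests on single libraries: without 1 of the Chaf1a + si308 libraries 290 repeat names were lower and without the other 4, and the MT2_Mm call was lost without either Chaf1a + si309 library (adjusted p = 0.46 and 0.41).

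Over all 1253 repeat names tested, 84 (6.7%) were higher and 84 (6.7%) lower than in the negative control, with 17 (1.36%) and 6 (0.479%) by at least 2-fold and a median of -0.03. Without any 1 of the 4 libraries 49 to 60 were higher and 44 to 55 lower. Scaled by library totals, 220 were higher and 31 lower, which is 87.6% of calls on the higher side against 50% here; with only the libraries of the 2 groups fitted, 111 were higher and 221 lower (33.4%). With 4 residual degrees of freedom these p-values rest on a spread shared over repeats. B2_Mm1a, a young SINE, rose with many reads behind it, at 1545 and 1594 CPM with Chaf1a + si309, against 546 and 609 CPM (log2 change 1.44, SE 0.07). ORR1A0-int, of the MaLR retrotransposons, had 239 and 241 CPM against 93.0 and 89.8 CPM (1.39, SE 0.07), and RLTR10B2 8.32 and 9.30 CPM against 3.10 and 2.36 CPM (1.71, SE 0.15). The other named rises were RLTR13D, LTR33B and RLTR1E_MM, of 1.78, 1.59 and 1.51, all under 3 CPM. IAP1-MM_I-int, of the IAP retroviruses, fell to 12.1 and 11.6 CPM, against 27.1 and 32.1 CPM (-1.33, SE 0.10), and IAPEy-int to 13.5 and 14.3 CPM, against 29.0 and 30.4 CPM (-1.10, SE 0.10). By class, 8 of 92 MaLR names were higher and 3 lower, 5 of 102 L1 names higher and 7 lower, 1 of 25 IAP names higher and 4 lower, 3 of 29 SINE names higher and 0 lower, 0 of 4 ETn and MusD names higher and 3 lower, 1 of 5 satellite names higher and 2 lower, and 0 of 9 other MT2 and ERVL names in either direction. Against Chaf1a + control cells 2 repeat names (0.16%) were higher and 502 (40.1%) lower, or 317 to 485 lower with 1 library left out. With library sizes taken from the repeat table the same comparison gave 93 higher and 191 lower. Repeats made up 6.94 and 6.90 counts per 100 gene counts with Chaf1a + si309, 8.45 and 8.75 in Chaf1a + control cells, and 6.25 and 6.45 in the negative control.

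**Figure D4:**
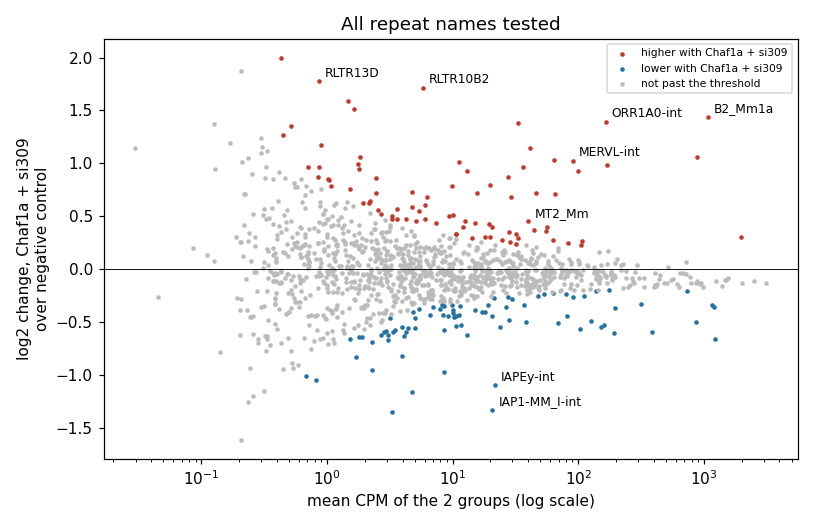
Fitted log2 change of each repeat name tested (y axis, Chaf1a + si309 over negative control) against its mean CPM in both groups (x axis, log scale), coloured where the adjusted p was under 0.05. MERVL-int (1.03), ORR1A0-int (1.39) and B2_Mm1a (1.44) rose at high levels, and IAP1-MM_I-int (-1.33) and IAPEy-int (-1.10) fell.

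Of 33 germline genes 28 were higher and 2 lower (median log2 change 1.44), beside 35% and 30.3% of all genes. Besides Tex101 and Taf7l, Fkbp6, a partner of the piRNA machinery, had 204 and 225 CPM with Chaf1a + si309, against 37.5 and 37.4 CPM (2.52, SE 0.06). Dazl, an RNA-binding protein of germ cells, had 154 and 157 CPM against 55.7 and 54.2 CPM (1.50, SE 0.06). Tex13, Tdrd1 and Brdt rose by 3.93, 4.10 and 2.45. Against Chaf1a + control cells 2 of the 33 were higher and 2 lower, where 3.76% and 7.06% of all genes were. Against Chaf1a + si308 cells 5 were higher and 0 lower, where 2.39% and 1.27% of all genes were.

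Of 22 DNA methylation genes 9 were higher (40.9%, beside 35% of all genes) and 11 lower (50%, beside 30.3%). The de novo enzymes were among those that rose. Dnmt3l, the cofactor of de novo methyltransferases, had 525 and 558 CPM with Chaf1a + si309, against 110 and 103 CPM in the negative control (log2 change 2.35, SE 0.06, adjusted p = 2.7e-18). Dnmt3a had 153 and 160 CPM against 90.3 and 85.0 CPM (0.84, SE 0.06), and Dnmt3b 183 and 186 CPM against 116 and 105 CPM (0.74, SE 0.06). The maintenance factors fell: Uhrf1 had 610 and 593 CPM against 848 and 880 CPM (-0.52, SE 0.04) and Dnmt1 595 and 575 CPM against 724 and 752 CPM (-0.34, SE 0.04). Tet1, which oxidises methylcytosine, had 206 and 202 CPM against 317 and 317 CPM (-0.63, SE 0.05) and was lower than with Chaf1a + si308 (-0.35, adjusted p = 0.00017). The median of the list was -0.08, and 0.10 when counts were scaled by library totals.

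Naive pluripotency genes leaned down, with 18 of 30 lower and 8 higher (median -0.37), beside 30.3% and 35% of all genes. Of all genes from 10 to 100 CPM and over 100 CPM in the negative control, 41.9% and 68% were lower. Dppa3, a maternal factor that guards methylation in the zygote, had 4.70 and 5.55 CPM with Chaf1a + si309, against 24.8 and 24.6 CPM (log2 change -2.26, SE 0.12), and Tcl1, an AKT coactivator, 42.8 and 45.1 CPM against 126 and 122 CPM (-1.49, SE 0.06). Pou5f1, which encodes OCT4, had 604 and 615 CPM against 905 and 883 CPM (-0.55, SE 0.04), Nanog 519 and 523 CPM against 803 and 749 CPM (-0.57, SE 0.05), and Sox2 154 and 139 CPM against 250 and 239 CPM (-0.74, SE 0.05). All 3 core factors therefore fell by less than 2-fold and stayed abundant. Lin28a, which blocks let-7 maturation, rose instead, at 80.2 and 80.3 CPM against 33.0 and 32.1 CPM (1.30, SE 0.07).

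Of 23 fibroblast and mesenchymal genes 21 were higher and 1 lower (median 3.06), beside 35% and 30.3% of all genes. Several members given below stood near 0 in the negative control. Of all genes under 0.1 CPM there 80.5% were higher, and of those from 0.1 to 1 CPM 45.1%. Both shares lean upward through the filter. Thy1 had 29.7 and 31.5 CPM with Chaf1a + si309, against 1.10 and 1.51 CPM (log2 change 4.52, SE 0.13), Col1a2 8.64 and 7.86 CPM against 0.196 and 0.0606 CPM (6.06, SE 0.31), and Acta2, smooth muscle actin, 3.65 and 4.46 CPM against 0.0785 and 0.0909 CPM (5.51, SE 0.35). S100a4, Postn and Col3a1 had 0 counts in the negative control and were at least 10.6-fold, 9.37-fold and 6.90-fold higher. Fn1, fibronectin, was the 1 that fell, at 1571 and 1464 CPM against 2449.6 and 2814 CPM (-0.79, SE 0.05). The 7 markers fixed for fibroblast feeder cells moved with these genes: the 5 that were tested were all higher and summed, over those tested, to 49.1 and 49.1 CPM against 2.67 and 2.61 CPM, while Lum had 4 and 4 counts against 1 and 1 and Dcn 4 and 9 against 0 and 0. Per the labels the cells grew on gelatin; the part of other cells in these rises was not tested, and more RNA per cell and more cells of a type cannot be told apart in bulk RNA. The 3 macrophage markers summed to 23.4 and 27.2 CPM against 22.4 and 22.8 CPM, with 2 of the 3 higher.

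Of 21 primitive endoderm genes 16 were higher and 2 lower (median 1.91), beside 35% and 30.3% of all genes. Some members were under 1 CPM in the negative control. Among all genes from 0.1 to 1 CPM there 45.1% were higher and 3.29% lower, tallies that lean upward through the filter. Gata6, a regulator of that lineage, had 3.56 and 3.55 CPM with Chaf1a + si309, against 0.353 and 0.303 CPM (log2 change 3.43, SE 0.31), while Gata4 had 0.762 and 0.811 CPM against 0.706 and 0.788 CPM (0.07, adjusted p = 0.87). Among basement membrane and endocytosis genes, Col4a1 had 198 and 184 CPM against 33.6 and 41.4 CPM (2.34, SE 0.08), Dab2 17.1 and 16.9 CPM against 1.61 and 0.879 CPM (3.82, SE 0.17) and Amn 13.1 and 11.7 CPM against 0.589 and 0.273 CPM (4.90, SE 0.23). Sox7 and Afp had 0 counts in the negative control and were at least 6.90-fold and 5.69-fold higher, and Lama1, a laminin chain, fell to 70.2 and 68.1 CPM, against 118 and 141 CPM (-0.91, SE 0.07).

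Of 16 trophoblast genes 10 were higher and 3 lower (median 1.64), beside 35% and 30.3% of all genes. Under scaling by library totals 1 was lower, and under the stricter filter 6 of 12 were higher. Krt19 had 33.9 and 37.8 CPM with Chaf1a + si309, against 4.95 and 7.06 CPM (log2 change 2.56, SE 0.13), and Krt8 18.5 and 19.9 CPM against 2.47 and 3.15 CPM (2.76, SE 0.15). Elf5, a trophoblast regulator, had 33 and 35 counts against 1 and 3. The trophoblast transcription factor Cdx2 was not tested, with 8 and 2 counts against 5 and 5. Postimplantation and germ layer genes split, with 9 of 20 higher and 8 lower (45% and 40%, beside 35% and 30.3% of all genes; median 0.26). Under the stricter filter 4 of 12 were higher and 8 lower (median -1.31). Otx2 had 9.02 and 8.62 CPM against 24.1 and 24.7 CPM (-1.47, SE 0.10) and Wnt3 1.59 and 1.32 CPM against 0.0785 and 0.0606 CPM (4.33, SE 0.52). Their median of 0.26 was -1.31 when genes under a mean of 1 CPM were left out. Of 38 Hox genes counted 14 passed the filter, all at low levels. Of all genes from 0.1 to 1 CPM in the negative control 45.1% were higher and 3.29% lower. From 1 to 10 CPM these shares were 41% and 18.8%. Of the 14 Hox genes tested 9 were higher and 0 lower, beside 35% and 30.3% of all genes. Without 1 of the negative control libraries 5 of 20 were higher and 1 lower, without the other 6 of 19 were higher, without 1 of the Chaf1a + si309 libraries 6 of 18, and DESeq2 gave 5 of 14. Among the 9, Hoxb9 had 4.89 and 6.13 CPM against 3.06 and 2.45 CPM (1.02, SE 0.17); the call of Hoxd13 was lost without 1 of the negative control libraries (adjusted p = 0.062).

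Of 28 imprinted genes 19 were higher and 3 lower (median 0.63), beside 35% and 30.3% of all genes. Genes expressed from either parental copy were among those that rose. H19, a maternally expressed noncoding RNA, had 53.4 and 54.1 CPM with Chaf1a + si309, against 7.03 and 7.42 CPM (log2 change 2.89, SE 0.08, adjusted p = 2.6e-17). Peg10, a paternally expressed gene needed by the placenta, had 288 and 280 CPM against 104 and 98.6 CPM (1.49, SE 0.06), and Nnat, also paternally expressed, 22.5 and 25.4 CPM against 2.79 and 2.45 CPM (3.20, SE 0.12). Cdkn1c, a maternally expressed inhibitor of the cell cycle, had 11.7 and 11.4 CPM against 0.667 and 0.515 CPM (4.30, SE 0.23). Magel2 had 14 and 19 counts against 0 and 0, at least 4.44-fold higher. Against Chaf1a + si308 cells 8 of the 28 were higher and 1 lower, among them H19 (log2 difference 0.62, adjusted p = 3.6e-06), Peg10 (0.66, adjusted p = 6.4e-08) and Cdkn1c (0.83, adjusted p = 0.0012), where 2.39% of all genes were higher. Against Chaf1a + control cells 1 of the 28 was higher and 6 were lower, where 3.76% and 7.06% of all genes were. Among these 6 were Peg10 (log2 difference -0.54) and Magel2 (-2.70).

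Of 36 signal genes of the FGF, Nodal and Wnt pathways 20 were higher and 10 lower (55.6% and 27.8%, beside 35% and 30.3% of all genes). Among ligands and inhibitors that fell were, beside Fgf4 and Lefty1, Lefty2 at 47.9 and 43.9 CPM with Chaf1a + si309, against 106 and 104 CPM (log2 change -1.20, SE 0.07), and Fgf17 at 0.381 and 1.01 CPM against 3.06 and 3.24 CPM (-2.12, SE 0.32). Some known targets of BMP, MAPK and Wnt signals were among those that rose, and other such targets on the list are not given. Id3 had 12.5 and 12.5 CPM against 1.06 and 0.485 CPM (4.08, SE 0.24), Id2 11.7 and 14.6 CPM against 1.77 and 2.12 CPM (2.75, SE 0.18), Egr1 2.92 and 3.17 CPM against 0.196 and 0.364 CPM (3.38, SE 0.29), and Sp5 5.97 and 5.53 CPM against 0.903 and 0.848 CPM (2.71, SE 0.26). Against Chaf1a + control cells 2 of the 36 were higher and 13 lower, where 3.76% and 7.06% of all genes were. Against Chaf1a + si308 cells 5 were higher and 1 lower, where 2.39% and 1.27% of all genes were. Egr1 was lower than in Chaf1a + control cells (log2 difference -0.90, adjusted p = 0.0013) and higher than in Chaf1a + si308 cells (0.85, adjusted p = 0.017).

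Of 32 replication and S phase genes 26 were lower and 2 higher (median -0.34), or 20 lower and 5 higher under scaling by library totals. Over all genes 30.3% were lower and 35% higher. At 10 to 100 CPM and over 100 CPM in the negative control, 41.9% and 68% of all genes were lower. Among those that fell were Pold1 at 76.3 and 81.1 CPM with Chaf1a + si309, against 151 and 163 CPM (log2 change -0.999, SE 0.06), Mcm6 at 553 and 554 CPM against 875 and 844 CPM (-0.63, SE 0.04) and Cdt1 at 103 and 99.8 CPM against 175 and 178 CPM (-0.80, SE 0.05). Ccne2, cyclin E2 of the G1 to S transition, rose to 74.5 and 70.9 CPM, against 32.3 and 30.6 CPM (1.21, SE 0.07). Of 25 G2/M genes 14 were lower and 1 higher, with Bub1b at 312 and 324 CPM against 508 and 487 CPM (-0.64, SE 0.04); this list's median of -0.13 was 0.05 under scaling by library totals, where 10 were higher and 5 lower. Of 26 CAF-1 and H3-H4 chaperone genes 14 were lower and 9 higher (34.6% higher, beside 35% of all genes), and 12 were lower and 11 higher under scaling by library totals (median -0.03). The second CAF-1 subunit Chaf1b had 120 and 116 CPM against 139 and 153 CPM (-0.31, SE 0.05), Npm1 3909.5 and 3917 CPM against 6391 and 5950 CPM (-0.66, SE 0.04) and Asf1a, which hands H3-H4 to CAF-1, 58.7 and 59.4 CPM against 41.8 and 35.8 CPM (0.61, SE 0.07).

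Replication-coupled histone genes gave few polyA reads; of 29 tested 9 were higher (31%, beside 35% of all genes) and 0 lower (median 0.62). With 1 library left out 4 to 7 were higher and 0 to 1 lower, the fewest without 1 of the Chaf1a + si309 libraries, and DESeq2 gave 5 higher. Hist1h2bc had 12.6 and 13.5 CPM with Chaf1a + si309, against 3.89 and 4.09 CPM (log2 change 1.71, SE 0.13), and Hist1h1c, a linker histone, 7.30 and 7.38 CPM against 2.75 and 2.94 CPM (1.36, SE 0.15). Their transcripts mostly lack polyA tails and are selected against in these libraries. The 29 summed to 43.1 and 44.8 CPM in Chaf1a + control cells, against 30.0 and 30.8 CPM with Chaf1a + si309. Members at few counts could pass the filter only through a group where they were high. A count against Chaf1a + control cells therefore leans toward lower. Of the 29, 11 were lower and 0 higher than in Chaf1a + control cells, where 7.06% and 3.76% of all genes were. Hist1h4i, for one, had a mean of 5.41 CPM in Chaf1a + control cells (log2 difference -1.36, adjusted p = 3.2e-05), against 2.16 and 2.05 CPM with Chaf1a + si309.

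Of 50 cytosolic ribosomal protein genes 44 were lower and 0 higher (median -0.43), such as Rpl4 at 3202 and 3307 CPM with Chaf1a + si309, against 5540 and 5525 CPM (log2 change -0.77, SE 0.04). Of 22 glycolysis genes 18 were lower and 1 higher (median -0.40), led by Ldhb and Pfkm (-1.62, SE 0.08). Of 27 stress response and amino-acid synthesis genes 18 were lower and 4 higher (median -0.36), or 14 lower and 7 higher under scaling by library totals, with the regulator Atf4 at 155 and 144 CPM against 267 and 294 CPM (-0.91, SE 0.05) and the arginine transporter Slc7a3 at 58.1 and 61.7 CPM against 181 and 171 CPM (-1.55, SE 0.06). The medians of these lists were -0.25, -0.22 and -0.18 under scaling by library totals, which moved the median of all genes up by a similar amount. Over all genes 30.3% were lower and 35% higher. At 10 to 100 CPM and over 100 CPM in the negative control, 41.9% and 68% of all genes were lower (medians -0.10 and -0.25).

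Of 24 cholesterol synthesis genes tested 18 were lower and 1 higher than in the negative control (median -0.42), beside 30.3% and 35% of all genes. Against Chaf1a + control cells, however, 18 were higher and 0 lower (median log2 difference 0.40), where 3.76% of all genes were higher. Against Chaf1a + si308 cells 5 were lower and 0 higher (median -0.15), where 1.27% of all genes were lower. Cyp51, the lanosterol demethylase, had 63.1 and 61.4 CPM with Chaf1a + si309, against 113 and 109 CPM in the negative control (log2 change -0.84, SE 0.07) and a mean of 45.1 CPM in Chaf1a + control cells (log2 difference 0.47, adjusted p = 4e-05). Of 22 glycolysis genes 12 were also higher and 0 lower than in Chaf1a + control cells. Against Chaf1a + si308 cells, unlike the cholesterol genes, 1 of them was higher and 0 lower (median -0.06).

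Of 26 p53 targets 16 were higher and 7 lower (median 0.28), beside 35% and 30.3% of all genes, with 4 lower under scaling by library totals. Perp, a desmosome gene, had 54.2 and 57.6 CPM with Chaf1a + si309, against 7.22 and 6.33 CPM (log2 change 3.05, SE 0.09), Cdkn1a, which encodes the cell cycle inhibitor p21, 258 and 271 CPM against 158 and 166 CPM (0.71, SE 0.05), and Mdm2, the p53 ubiquitin ligase, 299 and 291 CPM against 204 and 204 CPM (0.53, SE 0.04). Of 28 interferon and double-stranded RNA response genes 11 were higher and 9 lower, near the shares of all genes (35% and 30.3%), and 13 were higher and 6 lower under scaling by library totals. Among those that fell were Ifitm3 at 65.0 and 71.1 CPM against 175 and 177 CPM (-1.37, SE 0.05) and Mavs, the adaptor of cytosolic RNA sensing, at 27.7 and 24.9 CPM against 53.3 and 54.4 CPM (-1.04, SE 0.07). Irf7, a regulator of the response, rose to 26 and 33 counts, against 3 and 5 (2.57, SE 0.48). The list's median of 0.41 was -0.06 when genes under a mean of 1 CPM were left out.

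Of 16 genes of RNA interference 6 were higher and 6 lower, near the shares of all genes (35% and 30.3%). Scaled by library totals, 10 were higher and 2 lower. Ago1, an Argonaute protein, had 99.5 and 95.1 CPM with Chaf1a + si309, against 217 and 222 CPM in the negative control (log2 change -1.18, SE 0.05, adjusted p = 1.6e-14). It was also lower than in Chaf1a + control cells (log2 difference -0.25, adjusted p = 0.0017) and in Chaf1a + si308 cells (-0.36, adjusted p = 0.0001). Ago2, which cleaves targets, had 278 and 262 CPM against 377 and 414 CPM (-0.55, SE 0.05), and Dicer1 133 and 132 CPM against 150 and 152 CPM (-0.19, SE 0.05). Of 36 genes that repress retroelements or the two-cell-like state 21 were lower and 6 higher (median -0.22), beside 30.3% and 35% of all genes. Among all genes from 10 to 100 CPM and over 100 CPM in the negative control, 41.9% and 68% were lower, with medians of -0.10 and -0.25. Under scaling by library totals 10 were lower and 8 higher (median -0.04). Trim28 had 968 and 962 CPM against 1351 and 1345 CPM (-0.48, SE 0.04), the H3K9 methyltransferase gene Ehmt2 126 and 127 CPM against 190 and 189 CPM (-0.58, SE 0.05) and Rcor2, of the LSD1 complex, 116 and 114 CPM against 215 and 211 CPM (-0.89, SE 0.05).

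**Figure D5:**
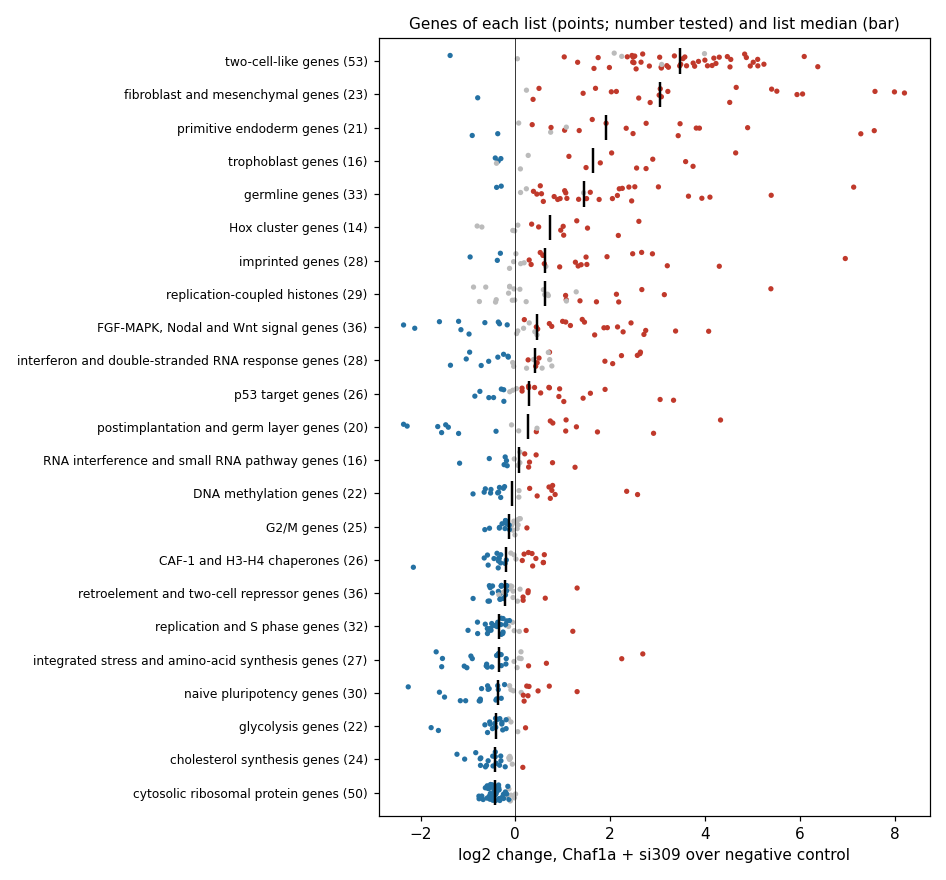
Fitted log2 change of every tested gene (points, x axis, Chaf1a + si309 over negative control) in each list, with the list's median (bar) and number tested; red and blue mark genes higher and lower at an adjusted p under 0.05. Medians run from 3.47 for two-cell-like genes to -0.43 for cytosolic ribosomal protein genes, beside 0.04 for all genes tested.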

How the data were processed

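The deposited files hold raw counts per gene and per repeat name for 8 libraries, which the authors made from 125-base paired reads of polyA RNA (TruSeq Stranded, per the labels' protocols). Novoalign 2.8, mm10 and DESeq2 are named per the submitters' processing notes; the counting tool, its annotation and its use of strand are not given in the sources used here. The log2 fold changes and adjusted p-values in the authors' deposited table were used to print its counts of calls only. A further 16 columns of regularised log values were not used.

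Groups came from the labels. The columns are numbered apart from the labels' replicates, so each column was mapped to its group and not to a single sample. Counts of all 4 groups were fitted together in edgeR 4.0.16 (R 4.3.3, limma 3.58.1) with TMM factors, a filter on low counts (filterByExpr), a mean for each group (4 residual degrees of freedom), with the quasi-likelihood F test and Benjamini-Hochberg adjustment over all 17977 genes or 1253 repeat names tested. Every adjusted p printed is from that test, "rose" and "fell" mean an adjusted p under 0.05, and the common dispersion was 0.00196. Log2 changes are fitted values with their SE, and n is 2 libraries in each group. Repeats used the library sizes of the gene table. CPM are counts scaled to a common, TMM-adjusted gene total (edgeR), compared within a gene and not between genes. The labels name biological replicates but no separate cultures, so p-values measure the spread between these libraries. Counting intervals are exact, at 95%, and cover counting error only; bounds use a floor of 3 counts per library. The fitting steps were tested on simulated data with the common dispersion for every gene, so that test does not vouch for calls in these data.

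Genes were named by a rule: both targets, the largest changes at 1 and at 50 CPM with groups that do not overlap, up to 4 members of each list with the smallest adjusted p, and up to 6 genes in each direction against the other depleted groups. Further list members were named for their known role after their values were seen. The groups compared, the lists and the rule were chosen with earlier results of these data known, so counts over a list are descriptions without a test. A few genes that the rule names are not reported here.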

Additional observations from a re-analysis of the deposited data

How the results depend on the processing

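Among the repeats named and the genes named by the rule, none changed direction under any alternative run that tested them. List members named for their known role were not followed through these runs. Library totals in place of TMM gave 3556 genes lower and 341 at least 2-fold lower, with 220 repeat names higher and 31 lower; leaving out genes under a mean of 1 CPM gave 2234 genes at least 2-fold higher. Library sizes of the repeat table gave 130 repeat names higher, 93 higher and 191 lower than in Chaf1a + control cells, and 8 higher than with Chaf1a + si308. Fitting the 4 libraries alone gave 221 repeat names lower. DESeq2 gave 446 genes and 0 repeat names higher than in Chaf1a + control cells, and no filter gave 373 genes lower than with Chaf1a + si308. Leaving out each library in turn gave 5600 to 5858 genes higher and 4769 to 5077 lower than in the negative control, 3437 to 3570 and 535 to 590 at least 2-fold, and 49 to 60 repeat names higher and 44 to 55 lower. Against Chaf1a + control cells it gave 196 to 905 genes higher and 695 to 1474 lower, with 1 to 2 and 317 to 485 repeat names. Against Chaf1a + si308 cells it gave 164 to 567 genes higher and 47 to 326 lower, with 1 to 7 and 0 to 290 repeat names; leaving out libraries of the other depleted groups was added after seeing the data. The log2 change of mDux ran from 1.64 to 5.74 (the top value is fitted against 0 counts), that of Chaf1a from -2.25 to -2.05 and that of MERVL-int from 0.99 to 1.06. LTR105_Mam lost its call without 1 negative control library (adjusted p = 0.17) or 1 Chaf1a + si309 library (adjusted p = 0.38). The cause of these shifts was not tested, beyond the fewer libraries or genes fitted. Same-numbered columns of the Chaf1a + si309 and negative control groups did not deviate together (r = 0.0236 over 9459 genes; other groups were not compared); with the replicate block 6271 genes were higher and 5438 lower, 75 and 67 repeat names were higher and lower, 1 repeat name was higher than in Chaf1a + control cells, and mDux changed by 2.41, Chaf1a by -2.15 and MERVL-int by 1.03. Depth limits genes at a few counts, such as mDux, to wide intervals.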
